A study of Homo sapiens with 2 samples.

Results

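YAP1 and WWTR1, the TEAD transcription factors and 4 of their best known target genes were followed in H1 cells, a line of human embryonic stem cells, at day 3 of differentiation towards blood. The group was fixed by name and held 10 genes of the 18518 listed in the data: the coactivators YAP1 (YAP) and WWTR1 (TAZ), the DNA-binding factors TEAD1, TEAD2, TEAD3 and TEAD4, and the target genes CCN1 (also CYR61), CCN2 (also CTGF), ANKRD1 and AMOTL2. RNA sequencing gave 1 library from wild-type H1 and 1 from H1 labelled MEIS1-/-. Both received activin A (40 ng/ml) together with BMP4 (50 ng/ml) for 2 days, followed by VEGF (40 ng/ml) with bFGF (50 ng/ml), and differed by label in the MEIS1 genotype alone. The sources used here do not say which part of MEIS1 was removed, whether the deleted cells were 1 clone, or how many cultures each library came from.

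YAP and TAZ carry the output of the Hippo pathway, a kinase cascade that reads cell density, cell shape and attachment. When the MST and LATS kinases are active, YAP and TAZ are phosphorylated and held in the cytoplasm or degraded; otherwise they enter the nucleus and switch on genes through TEAD factors, which bind the DNA motif CATTCC. In human pluripotent cells and their mesodermal descendants the pathway bears on self-renewal, on the choice of germ layer and on the response to mechanical cues. RNA counts measure the messengers of these genes and their targets and not the phosphorylation or the location of YAP.

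The 3 target promoters below are shown because they hold the TEAD motif close to the start of transcription. Each gives the 250 bases before the RefSeq start, in build GRCh38.p14, 5′ to 3′ on the strand of the gene, and capitals mark CATTCC or its reverse complement GGAATG. CCN2 lies on the minus strand at chr6:131951373-131951622, ANKRD1 on the minus strand at chr10:90921088-90921337, and the second of the RefSeq starts of AMOTL2 on the minus strand at chr3:134374448-134374697.
CCN2: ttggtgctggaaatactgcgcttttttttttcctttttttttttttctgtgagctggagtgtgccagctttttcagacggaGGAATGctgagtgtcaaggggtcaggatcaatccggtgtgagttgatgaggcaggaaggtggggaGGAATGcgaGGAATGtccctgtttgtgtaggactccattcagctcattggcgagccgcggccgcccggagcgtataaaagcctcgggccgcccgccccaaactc
ANKRD1: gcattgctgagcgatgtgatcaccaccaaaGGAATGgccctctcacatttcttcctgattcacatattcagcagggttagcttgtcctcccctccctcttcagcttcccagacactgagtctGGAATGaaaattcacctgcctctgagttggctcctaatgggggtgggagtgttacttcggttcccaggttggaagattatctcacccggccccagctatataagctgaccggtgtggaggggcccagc
AMOTL2: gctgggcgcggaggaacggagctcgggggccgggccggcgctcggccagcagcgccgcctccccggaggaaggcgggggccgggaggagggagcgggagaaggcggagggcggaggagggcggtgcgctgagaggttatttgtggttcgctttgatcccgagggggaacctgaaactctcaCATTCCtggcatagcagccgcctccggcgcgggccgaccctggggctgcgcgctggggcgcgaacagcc
In CCN2 the 3 matches begin 169, 104 and 95 bases before the start, in ANKRD1 the 2 matches begin 220 and 128 bases before it, and in AMOTL2 the match begins 69 bases before it. Promoters were found for 7 of the 10 genes, with none available for CCN1, TEAD1 or TEAD4. Besides the 3 genes shown, YAP1 held GGAATG 162 bases before its start. In total 4 of the 7 genes held at least 1 match, against 14.3% of 27305 genes. By window it was 4 of 10, since the other AMOTL2 window, both windows of WWTR1 and of TEAD2 and that of TEAD3 held 0. On either strand the motif occurred in 11.9% of 35116 promoter windows of this length, at least 2 matches occurred in 0.94% and at least 3 in 0.0826%. A match describes the letters of the window and not binding in these cells.

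The libraries held 5202875 and 5296440 expected counts, wild type first, over 17562 and 17696 listed genes. In the same order, MEIS1 itself had 89 and 68 counts, or 5.34 and 4.01 FPKM (fragments scaled for gene length and library depth), a ratio of 0.759 with an exact 95% counting interval of 0.543 to 1.05. The level of MEIS1 therefore did not separate the libraries beyond counting error, the files do not show which part of the gene was counted, and genotype is used here only as the label gives it. With 1 library per genotype there was no test between genotypes; each interval covers counting error between these 2 libraries, and a gene was called when its ratio reached 1.5-fold in either direction with an interval that excluded 1.

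All 10 genes were expressed in both libraries, each with at least 256 counts, and none differed by 1.5-fold. Of all 14381 genes that reached 10 counts in either library, 5.75% were called higher and 6.21% lower by that rule, so a count of 0 among 10 genes is not far from the background. The extreme ratios were 0.727 for AMOTL2 and 1.23 for WWTR1. By the counting interval alone 2 of the 10 genes, WWTR1 and TEAD1, were higher in the library labelled deleted, and 4, YAP1, TEAD2, CCN1 and AMOTL2, were lower; the background for these counts was 15.4% and 14.7% of all genes, and 21.9% and 19.7% of the 6102 genes with at least 200 counts, a level that all 10 genes reached. The median log2 ratio of the 10 genes was -0.15, against 0.0032 over all genes compared. The cells were sequenced in bulk, so fewer cells of a type and less RNA per cell cannot be told apart.

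**Figure D1:**
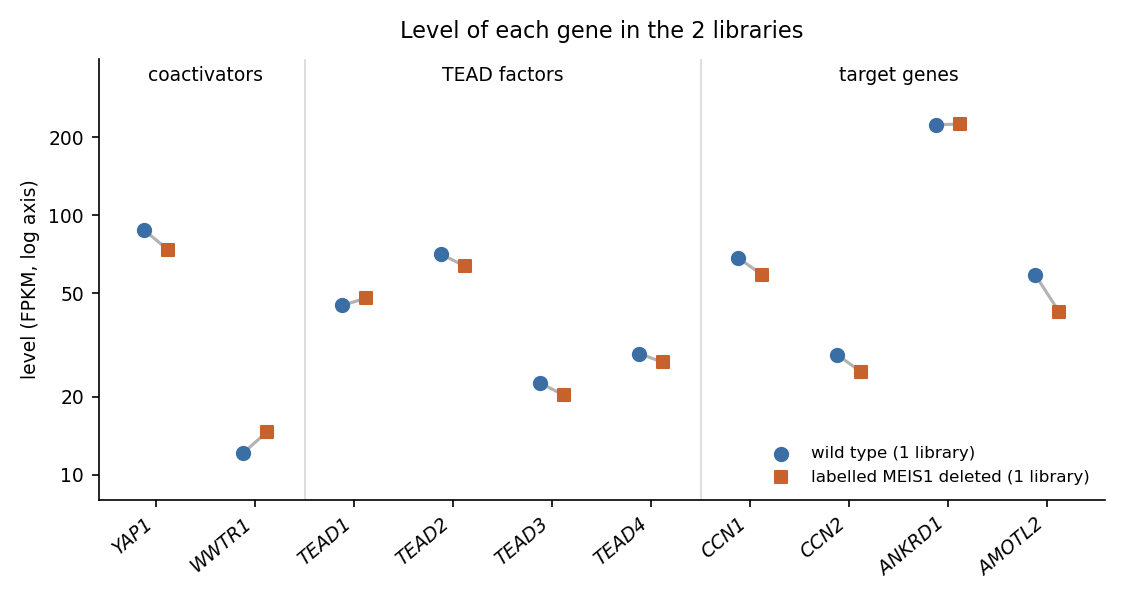
Level of the 10 genes in FPKM (vertical log axis) in the wild-type library (circles) and the library labelled MEIS1 deleted (squares), joined for each gene. ANKRD1 stands highest at 223 and 225 FPKM and WWTR1 lowest at 12.1 and 14.6, and the ranks of TEAD1 and AMOTL2 are the ones that change places.

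Per length, ANKRD1 was the most abundant messenger of the group and WWTR1 the least. In wild type the FPKM levels ran from 223 for ANKRD1 through 87.4 for YAP1, 70.7 for TEAD2, 68.4 for CCN1, 58.9 for AMOTL2, 44.99 for TEAD1, 29.3 for TEAD4, 29.0 for CCN2 and 22.5 for TEAD3 to 12.1 for WWTR1. The order was the same in the library labelled deleted but for TEAD1, at 47.8 FPKM, which stood above AMOTL2, at 42.5 FPKM. Neighbours whose FPKM levels had overlapping counting intervals were TEAD2 with CCN1 and TEAD4 with CCN2 in both libraries, and CCN2 with TEAD3 in the library labelled deleted only. ANKRD1 lay above 98.8% of listed genes in both libraries on the FPKM scale, YAP1 above 96.1% and 95.2%, and WWTR1 above 66.6% and 71.8%.

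The coactivators differed in opposite directions. YAP1, the main Hippo-regulated coactivator, had 2354 and 2011 counts, wild type first here and below, which is 87.4 and 73.6 FPKM. Its ratio was 0.846 (95% counting interval 0.796 to 0.898), so the library labelled deleted was the lower one. WWTR1, which encodes the YAP paralogue TAZ, had 317 and 393 counts, or 12.1 and 14.6 FPKM, and its ratio was 1.23 (1.06 to 1.43). Of all genes compared, 46.4% had a ratio at least as far from 1 as YAP1, and 38.9% as WWTR1. Among genes with at least 200 counts these shares were 30.0% for YAP1 and 22.7% for WWTR1. The expected counts of WWTR1, 317.37 and 392.88, were not whole, because some of its reads also fitted other genes. YAP1 outweighed WWTR1 in both libraries, by 7.21 times in the wild-type library and by 5.03 times in the other on the FPKM scale. WWTR1 made up 11.9% of the counts of the pair in wild type (exact Clopper-Pearson 95% interval 10.7 to 13.2) and 16.3% in the other library (14.9 to 17.9), intervals that do not overlap and that no scaling of the libraries can move. The summed counts of the pair were 2671 and 2404, a ratio of 0.891 (0.843 to 0.942).

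The TEAD factors, the DNA-binding partners through which YAP and TAZ act, were close to level. TEAD1 had 2229 and 2413 counts (44.99 and 47.8 FPKM), a ratio of 1.07 (1.01 to 1.14), and was the single TEAD gene with the higher value in the library labelled deleted. TEAD2, known for its early embryonic expression, had 778 and 709 counts (70.7 and 63.6 FPKM), a ratio of 0.902 (0.814 to 0.9998). The upper limit of TEAD2 touched 1, and with DESeq2 size factors in place of the scaling used it was 1.01. TEAD3 had 355 and 324 counts (22.5 and 20.2 FPKM), with a ratio of 0.904 (0.775 to 1.05). TEAD4, needed in the mouse embryo for the trophoblast lineage, had 271 and 256 counts (29.3 and 27.1 FPKM), with a ratio of 0.935 (0.785 to 1.11). The intervals of TEAD3 and TEAD4 thus included 1, and at this depth they allowed a level as low as 0.775 and 0.785 of wild type. The counts of TEAD3 and TEAD4 in the library labelled deleted were not whole, so a few of their reads were shared with other genes.

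**Figure D2:**
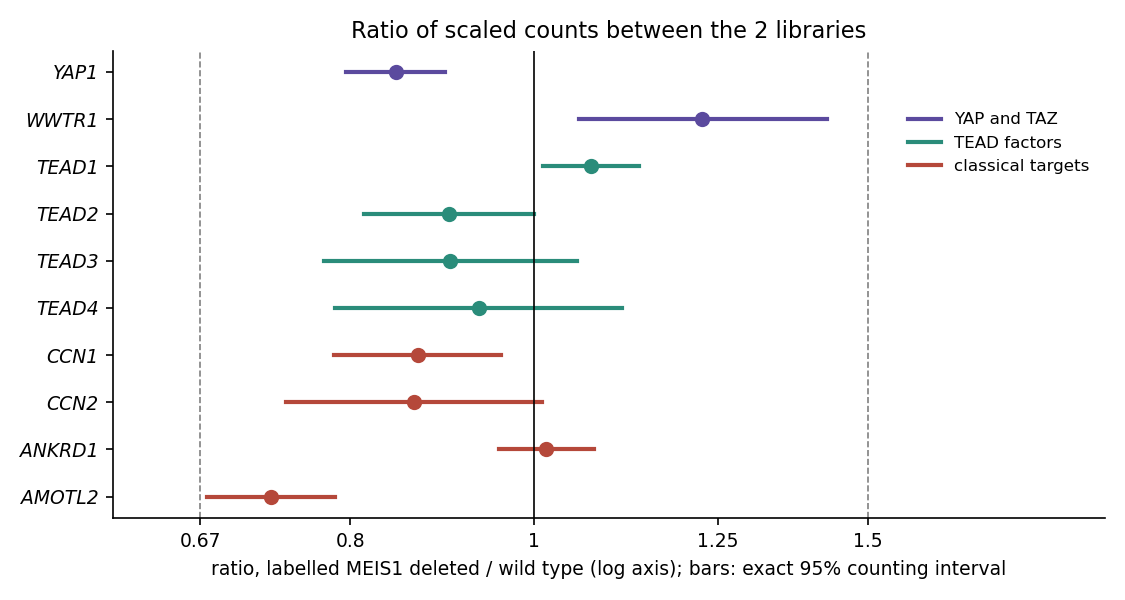
Ratio of scaled counts, library labelled MEIS1 deleted over wild type (horizontal log axis), for each of the 10 genes, with exact 95% counting intervals as bars; dashed lines mark 1.5-fold in either direction. AMOTL2 lies lowest at 0.727 and WWTR1 highest at 1.23, and no point passes a dashed line.

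TEAD1 collected the most reads of its family and TEAD2 the highest level per length, since the TEAD1 transcript listed in the files is 9433 bases long and those of TEAD2 average 2124 bases in wild type. On the FPKM scale TEAD2 made up 42.2% and 40.1% of the summed level of the 4 TEAD genes, TEAD1 26.9% and 30.1%, TEAD4 17.5% and 17.1%, and TEAD3 13.5% and 12.7%. Summed over the family, counts were 3633 and 3702, a ratio of 1.01 (0.963 to 1.06), while the summed FPKM were 167 and 159, a log2 ratio of -0.077. The direction of the family sum thus turned with the scale, because TEAD1 weighs more in counts than in FPKM. As a share of the TEAD counts, TEAD1 took 61.4% (exact interval 59.7 to 62.9) and 65.2% (63.6 to 66.7).

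**Figure D3:**
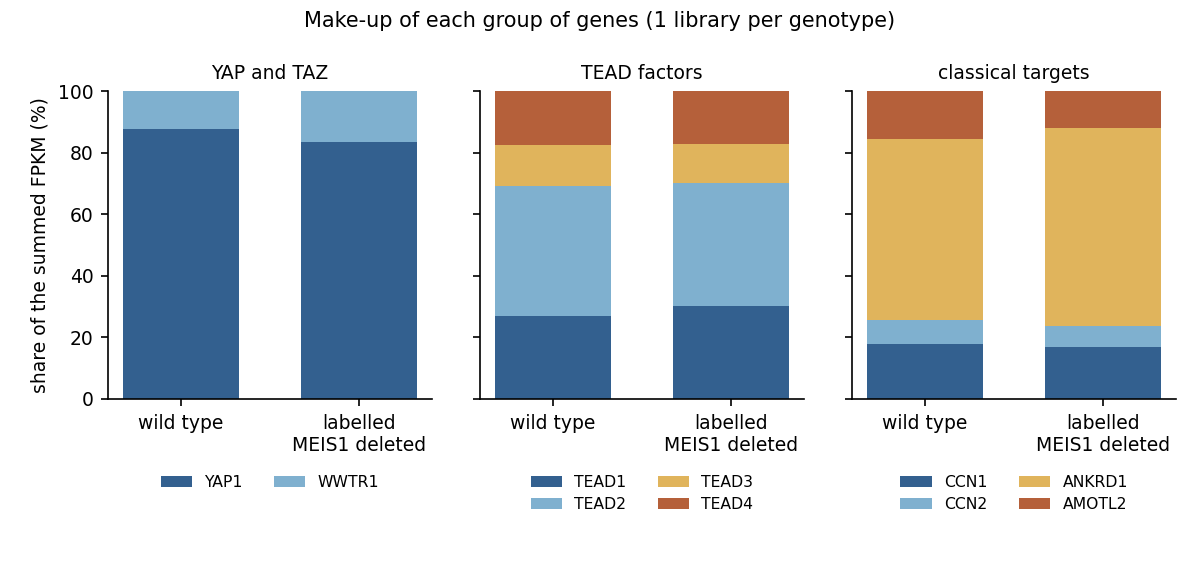
Share of the summed FPKM (vertical axis, percent) that each gene took within the coactivators, the TEAD factors and the target genes, in each library. YAP1 takes 87.8% and 83.4% of its pair, TEAD2 42.2% and 40.1% of its family, and ANKRD1 58.8% and 64.0% of the target genes.

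Among the target genes AMOTL2 stood apart from ANKRD1. AMOTL2 encodes a junction protein of the angiomotin family that binds YAP and restrains it, and is itself switched on by YAP. It had 1536 and 1128 counts, or 58.9 and 42.5 FPKM, and its ratio was 0.727 (0.672 to 0.785). A ratio at least as far from 1 was found for 23.6% of all genes compared and for 10.3% of those with at least 200 counts. CCN1, a secreted matricellular protein, had 815 and 715 counts (68.4 and 59.0 FPKM), a ratio of 0.868 (0.784 to 0.961). CCN2, or connective tissue growth factor, had 355 and 310 counts (29.0 and 24.9 FPKM). Its ratio of 0.865 was almost that of CCN1, but on fewer counts the interval of 0.740 to 1.01 included 1. ANKRD1, a nuclear ankyrin repeat protein of stretched heart muscle that is also a standard YAP readout, had 2304 and 2363 counts (223 and 225 FPKM). The ratio of ANKRD1 was 1.015 (0.958 to 1.08), so its interval included 1 and was narrower than that of CCN2.

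The 4 target genes therefore did not keep their proportions between the libraries. AMOTL2 made up 30.7% (exact interval 29.4 to 32.0) of their summed wild-type counts and 25.0% (23.7 to 26.3) of those in the other library, and ANKRD1 46.0% (44.6 to 47.4) and 52.3% (50.9 to 53.8). CCN1 took 16.3% and 15.8% and CCN2 7.09% and 6.86%, with overlapping intervals for each. Their summed counts were 5010 and 4516, a ratio of 0.892 (0.857 to 0.929). The summed coactivator counts had a ratio of 0.891, but the nearness of these ratios depended on the scale. In summed FPKM the ratio was 0.925 for the 4 target genes and 0.886 for the coactivators. Whether the target genes followed the coactivators was not tested.

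**Figure D4:**
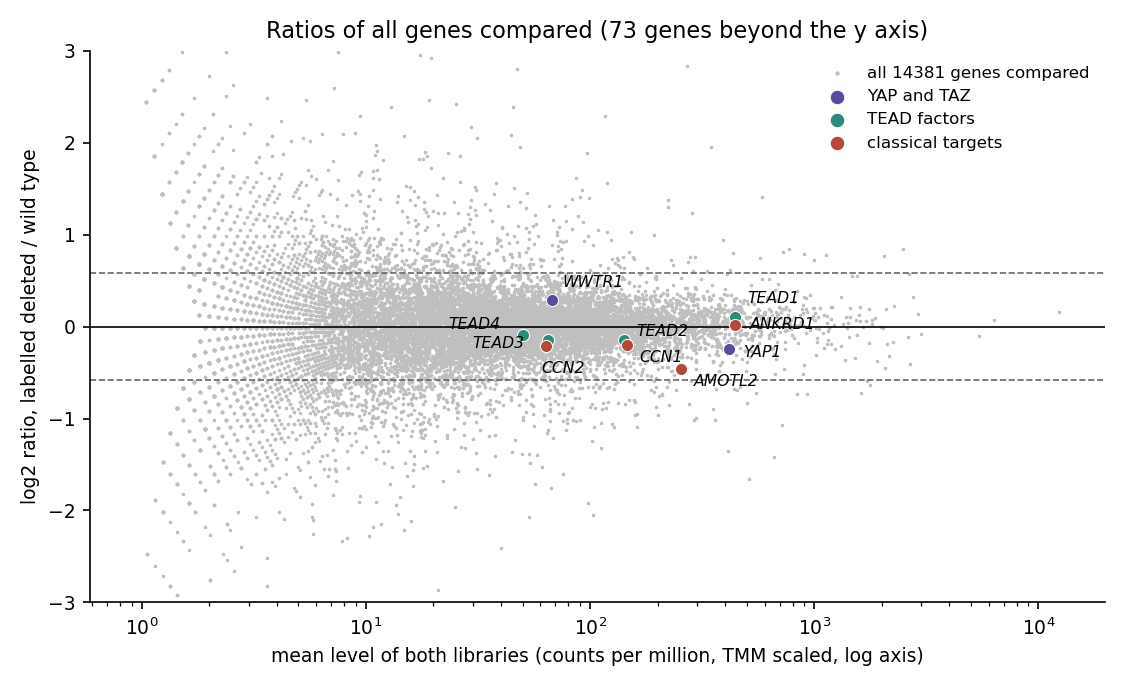
Log2 ratio, library labelled MEIS1 deleted over wild type (vertical axis), against the mean level of both libraries in CPM (horizontal log axis), for all 14381 genes compared (grey; 73 lie beyond the axis) and the 10 genes by group; dashed lines mark 1.5-fold. The 10 genes lie between -0.46 and 0.29, inside the dashed lines.

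Of 16 measured kinases and adaptors that restrain YAP, 6 had an interval above 1 and 3 below, against 15.4% and 14.7% of all genes and 21.9% and 19.7% of those with at least 200 counts. None was called at 1.5-fold, against 5.75% of all genes called higher and 6.21% lower, and the median log2 ratio was 0.085. WWC1 (KIBRA), an upstream adaptor of the cascade, had 80 and 117 counts and a ratio of 1.44 (1.08 to 1.95). MOB1B, an activator of the LATS kinases, had 697 and 958 counts and a ratio of 1.36 (1.23 to 1.502), whereas its paralogue MOB1A had 328 and 273 counts and a ratio of 0.824 (0.699 to 0.970). STK4, which encodes the kinase MST1, had 550 and 675 counts and a ratio of 1.21 (1.08 to 1.36). WWC1, MOB1B and STK4 had expected counts that were not whole.

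Of 18 measured polarity and junction genes of the pathway, 3 had an interval above 1, 3 below and 12 (66.7%) that included it. Of all genes compared, 15.4% had an interval above 1, 14.7% below and 69.9% that included it. Among genes with at least 200 counts, a level that most of the 18 reached, 21.9% lay above and 19.7% below. None of the 18 was called at 1.5-fold, against 5.75% of all genes called higher and 6.21% lower. Their median was -0.08. The interval counts were near the shares of all genes compared. FAT1, a giant protocadherin, had 2502 and 3630 counts and a ratio of 1.44 (1.36 to 1.51). The tight junction scaffold gene PATJ had 354 and 249 counts and a ratio of 0.697 (0.590 to 0.821). AMOTL1, another angiomotin, had 2098 and 1761 counts and a ratio of 0.831 (0.779 to 0.885). PTPN14, a phosphatase that binds YAP and is itself a YAP target, had 1276 and 1067 counts and a ratio of 0.828 (0.762 to 0.898). AMOT, the founding angiomotin and chosen after its values were seen, had 557 and 609 counts and a ratio of 1.08 (0.963 to 1.22), so the interval of this family member included 1. Expected counts of PATJ and PTPN14 were not whole.

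The Vestigial-like cofactors, which compete with YAP for TEAD proteins, were represented by VGLL4 and VGLL3. VGLL4 had 350 and 436 counts (17.9 and 21.7 FPKM) and a ratio of 1.23 (1.07 to 1.42). VGLL3 had 43 and 26 counts, not whole, and a ratio of 0.607 (0.353 to 0.996). On these few counts VGLL3 was called lower, as were 6.21% of all genes compared. VGLL1 was listed in neither library and VGLL2 had 1 count in the library labelled deleted, and a count of 0 allows up to 3 counts, or 0.577 and 0.566 in CPM (counts scaled to a common library size).

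Further YAP and TAZ targets held genes that were called in either direction. Of 18 measured, 8 had an interval above 1, 3 below and 7 that included it, and 4 were called higher and 1 lower at 1.5-fold. Over all genes the shares were 15.4% above and 14.7% below by the interval, and 5.75% and 6.21% by the call. Among genes with at least 200 counts, a level that most of the 18 reached, the interval shares were 21.9% and 19.7%. PTPN14 and LATS2 were also counted above, among the polarity genes and the kinases. The median log2 ratio was 0.11 here and -0.21 for the 4 classical targets, which had more counts than several genes of this list. IGFBP3, a secreted binding protein of insulin-like growth factors, had 216 and 808 counts and a ratio of 3.69 (3.18 to 4.32). The matrix protein gene CCDC80 had 884 and 2105 counts and a ratio of 2.36 (2.18 to 2.55). RBMS3, an RNA-binding protein gene, had 97 and 228 counts and a ratio of 2.31 (1.83 to 2.98), and TGFB2, a ligand of the TGF-beta family, had 519 and 755 counts and a ratio of 1.44 (1.29 to 1.61), short of the call. The other called genes, chosen after their values were seen, were NT5E (CD73), with 9 and 23 counts and a ratio of 2.38 (1.13 to 6.21), and the forkhead factor gene FOXF2, with 31 and 11 counts and a ratio of 0.371 (0.159 to 0.718). The list was drawn up from general knowledge of YAP targets in other cells. Of its 13 genes with a RefSeq promoter, 5 held the TEAD motif in the same window, against 14.3% of 27305 genes.

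**Figure D5:**
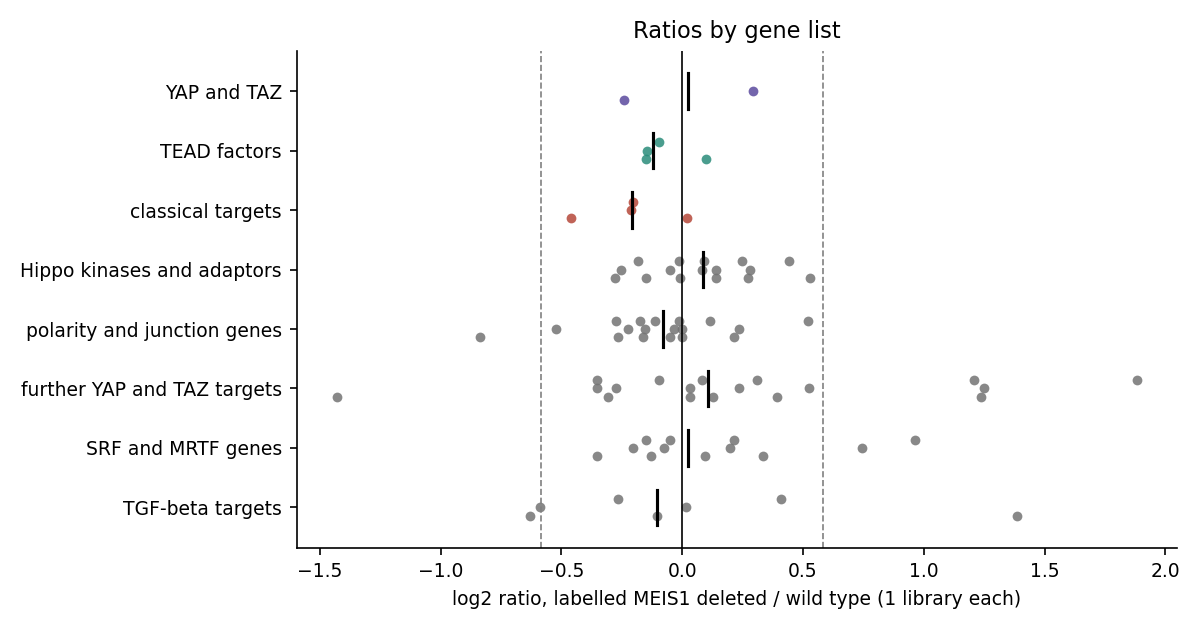
Log2 ratio, library labelled MEIS1 deleted over wild type (horizontal axis), of each measured gene (points) in the 3 groups described first and in 5 further lists; black bars are list medians and dashed lines mark 1.5-fold. The further targets run from -1.43 to 1.88 and the 4 classical targets from -0.46 to 0.022.

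CCN1, CCN2 and ANKRD1 also answer to other inputs, and genes of 2 of these were read beside them. Over all genes compared, 15.4% had an interval above 1 and 14.7% below, and 5.75% and 6.21% were called higher and lower. Among genes with at least 200 counts the interval shares were 21.9% and 19.7%. Of 12 genes of serum response factor (SRF) and its actin-sensing MRTF partners, 4 had an interval above 1, 3 below and 5 that included it. Their median log2 ratio was 0.023, and 2 were called higher and 0 lower at 1.5-fold. TPM1 (tropomyosin) had 2229 and 3775 counts and a ratio of 1.68 (1.59 to 1.77), while MYL9, a myosin light chain gene, had 1350 and 1069 counts and a ratio of 0.784 (0.723 to 0.8498). ACTA2 (smooth muscle actin) had 136 and 269 counts, not whole, and a ratio of 1.95 (1.59 to 2.42). Of 7 TGF-beta targets, 2 had an interval above 1, 3 below and 2 that included it, with a median of -0.10. At 1.5-fold 1 of them was called higher and 2 lower. TGFBI, a matrix adaptor gene, had 240 and 636 counts and a ratio of 2.62 (2.26 to 3.06), and the transcription factor gene BHLHE40 had 398 and 267 counts and a ratio of 0.665 (0.566 to 0.777). Relatives of the target genes were scarce. CCN4 had 49 and 83 counts and a ratio of 1.66 (1.16 to 2.44), and was called higher. ANKRD23 had 15 and 9 counts, and CCN3, CCN5, CCN6 and ANKRD2 were listed in neither library.

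Markers of the cell types that such cultures can hold were read beside these genes. For each count below, the background was 15.4% of all genes compared with an interval above 1 and 14.7% with 1 below. Among genes with at least 200 counts it was 21.9% and 19.7%. The mesoderm factor gene HAND1 stood at 254 and 301 FPKM and the pluripotency gene POU5F1 at 148 and 83.4, while SOX2 had 4 and 9 counts and the blood genes PTPRC and SPI1 at most 7 counts in either library. Of 6 endothelial markers, 6 had an interval above 1 and 5 were called higher, against 15.4% and 5.75% of all genes, with a median log2 ratio of 2.17. Their summed level of 174 and 260 FPKM was mostly KDR, chosen after its values were seen and 1.14 times as high, while PLVAP, PECAM1, TIE1 and CDH5 were 6.99, 5.35, 5.22 and 3.87 times as high. Of 6 fibroblast and smooth muscle markers, 4 were above 1 and 1 below, with a median of 0.50 and a sum of 539 and 692 FPKM. Of 4 measured pluripotency markers, 4 had an interval below 1, with a median of -0.65 and a sum of 628 and 493 FPKM over the list of 5. Of 5 measured streak and mesoderm markers, 2 were above 1 and 3 below, and the median was -1.41. EOMES had a ratio of 0.242, TBXT of 0.377 and MIXL1, chosen after its values were seen, of 0.351, so the near-level sum of 345 and 339 FPKM was carried by HAND1, with a ratio of 1.195. Of 4 measured heart muscle markers 2 were above 1 and 0 below, with a median of 0.64 and a sum of 49.8 and 53.4 FPKM, and NKX2-5 had a ratio of 2.02. Of 5 endoderm markers 1 was above 1 and 2 below, with a median of -0.48 and a sum of 86.5 and 87.6 FPKM; CER1 had a ratio of 0.231, SOX17 of 0.613 and APOA1 of 2.87. Of 5 measured amnion and trophoblast markers 1 was above 1 and 3 below, with a median of -0.32 and a sum of 75.6 and 61.2 FPKM. Blood markers summed to 1.36 and 4.33 FPKM, with the globin gene HBE1 at 0 in wild type, and CGA, a trophoblast gene, was at 0 in the library labelled deleted. The part of these shifts in the ratios of the 10 genes was not tested.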

How the data were processed

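RNA sequencing of 1 wild-type and 1 MEIS1-deleted library, by label, was read from the deposited tables, whose columns, per the file headers, are the gene number, its transcripts, length, expected count and FPKM. The authors deposited expected (estimated) counts unscaled, with reads fitting several genes divided between them, so the count of a gene with close relatives is uncertain. The deposited FPKM values are scaled for length and depth. The submitters' processing notes name BWA, Bowtie, RSEM and build hg19; their versions are not given in the sources used here. A gene absent from 1 table was taken as 0 there.

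Gene numbers were matched to symbols through RefSeq (GRCh38.p14), 18413 of 18518. Expected counts were rounded, scaled by TMM in edgeR 4.0.16 (effective sizes differing by a factor of 1.01) and compared as ratios with a pseudocount of 1, with exact Clopper-Pearson 95% intervals of the unmodified counts conditional on their sum. PCR copies are not independent molecules, so intervals and the limit of 3 counts for a 0 cover counting error only. Genes with at least 10 counts in 1 library were compared. The computation was tested on simulated data. Intervals of FPKM levels are exact Poisson intervals of the counts. Further lists named up to 4 genes each, those with the largest ratios among genes of at least 50 counts, or any gene of a list of up to 5. Counts were called whole within 0.005. The members and lists were chosen with earlier results of these data known. Alternatives were other scalings, pseudocounts, filters, FPKM in place of counts, and other call rules. Some genes of the further lists are not reported here by name.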

Additional observations from a re-analysis of the deposited data

How the results depend on the processing

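For the 10 genes and MEIS1, 77 of 77 alternative log2 ratios (other scalings, a pseudocount of 0.5, unrounded counts, FPKM) stayed within the main counting interval, and AMOTL2 ranged from -0.47 to -0.45, WWTR1 from 0.25 to 0.31 and YAP1 from -0.25 to -0.23. The median of the 10 genes ran from -0.16 to -0.13 over its 9 alternatives. The number of the 10 genes called at 1.5-fold was 0 in each direction in 11 of 12 alternatives. Several of these could not change it, since each gene had at least 256 counts and no ratio reached 1.5-fold. They were the 2-fold rule, the rule without an interval, no filter and the minimum of 50 counts. With the interval alone and no minimum fold the number was 2 higher and 4 lower. In alternatives chosen after seeing the data, the count with an interval below 1 was 3 with DESeq2 size factors, where TEAD2 dropped out, and 4 with total counts or upper-quartile factors, and the count above 1 was 2 with each. The summed TEAD level turned from 0.012 in counts to -0.077 in FPKM. Of all genes, 827 higher and 893 lower became 506 and 587 with a minimum of 50 counts, 417 and 424 at 2-fold, and 2212 and 2117 by the interval alone. Other scalings moved the median log2 ratio of all genes from 0.0032 to between -0.0076 and 0.018. Medians of some short marker lists depended on the filter. With a minimum of 50 counts the streak and mesoderm median was -0.57 in place of -1.41. With no filter the pluripotency median was -0.49 in place of -0.65, and the heart muscle median 0.26 in place of 0.64. No paired analysis was possible because each genotype has 1 library, and no library could be left out for the same reason. Depth limits the genes with few counts, such as VGLL3, FOXF2 and NT5E.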
